A study of Rattus norvegicus with 11 samples.

Results

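The comparison described here is the effect of LY294002, an inhibitor of phosphoinositide 3-kinase (PI3K), in REF52 cells that carried an E2F1 adenovirus and were kept in serum. REF52 is an established rat embryo fibroblast line. Members were chosen by their sample titles, which gave 2 arrays labelled E2F1 Serum and 2 arrays labelled E2F1 Serum LY294002, 4 of the 11 arrays of the series. All cells had been grown in 10% serum and held for 48 h in 0.25% serum, and were then infected with a control virus, labelled CMV, or with the virus that expresses E2F1. After infection the cells received serum, serum with LY294002, or deprived medium. Beside the 4 arrays stand the 2 CMV Serum and 2 CMV Serum LY294002 arrays, which carry the same inhibitor contrast without E2F1, and the 2 E2F1 Serum deprivation arrays. The dose of LY294002 and the time of harvest were not given in the sources used here. Labels leave unsaid whether arrays of 1 group represent separate cultures, and the p-values then measure only the spread between arrays, which may be technical. All groups are thus virus-infected cells of 1 line, E2F1 is supplied by the virus, and LY294002 is known to act on some other kinases beside PI3K.

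PI3K makes a lipid signal at the cell membrane when growth factor receptors are engaged, and this signal activates the kinase Akt. Akt keeps FOXO transcription factors out of the nucleus, feeds the mTOR complex that controls protein and lipid synthesis, and favours survival. E2F1 is a transcription factor that drives genes of S phase entry and DNA replication and can also induce apoptosis, so a cell with excess E2F1 and PI3K signalling receives a growth and a survival input together. The series title names the balance of proliferation and cell death as the subject of the study.

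No probe set passed the test for LY294002 in E2F1 cells. Of 15866 probe sets, 0 (0%) had an adjusted p under 0.05 in limma with Benjamini-Hochberg adjustment, and the smallest adjusted p was 0.126. At an unadjusted p under 0.05 there were 1769 probe sets, 739 higher with LY294002 (4.66%) and 1030 lower (6.49%). By chance 793.3 would fall there if nothing differed. With a covariate for RNA integrity (the 3' to 5' measure given below) there were 882, near that number, so the excess depends on the model. In control virus cells 0 probe sets passed (0%), with 1050 at an unadjusted p under 0.05 (3.55% of all probe sets higher, 3.07% lower). The test of the difference between the 2 viruses also gave 0 (0%), with 998 at an unadjusted p under 0.05, 2.4% higher and 3.9% lower in E2F1 cells. The same test was run on simulated data with independent noise, the same spread on every array and 200 changed probe sets. It recovered 10% of 2-fold increases, 84% of 4-fold increases and 76% of 4-fold decreases. Changes near 2-fold were thus largely undetectable even in that setting. Array weights, which fall as scatter grows, were 0.553 and 0.638 for the E2F1 and control virus arrays with LY294002 and 1.08 to 1.6 elsewhere. On that ground the simulated shares may be too high for the real arrays. They also depend on the number of changed probe sets, which is unknown in the real data, and may be too low if more changed. What follows therefore gives levels on each array, and every difference named for LY294002 is a difference that did not pass the test unless another comparison is named.

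The arrays set the limits of these values. Signals are on a linear array scale, each array has a trimmed mean of 500, and all differences below are on the log2(signal + 16) scale, given as estimate ± standard error with n = 2 arrays a group. The 2 E2F1 arrays with LY294002 correlated at 0.960 and the 2 serum arrays at 0.977. The difference between 3' and 5' probe sets of the Gapdh and Actb controls, a measure of RNA integrity and labelling, was 0.264 and 0.899 on the first and second E2F1 arrays with LY294002 and 0.178 to 0.189 on the E2F1 serum arrays. It was 0.19 and 0.331 on the control virus arrays with LY294002. Without the first E2F1 array with LY294002, 325 probe sets passed (110 higher, 215 lower), and without the second, 0 passed. The lone second array is then assumed to vary like the other groups. Of the genes named below, the 325 included Nppb, Pln, Mycn, Sprr1a, Ddb2, Cul4a, Atp8a1, Rab15, Cxcr4, C2h1orf52, Zswim6, Cdkn1b, Txnip, Nr4a3, Il6, Bak1, Mdm2, Ccnd1, Tgfbr1 and Prkaa2. Centring the arrays on their medians moved the median difference of all probe sets from -0.05 to 0.06, so a list median within that shift of 0 has no settled sign. The signals of 15 fibroblast markers summed to 83673 to 103649 on the 4 E2F1 arrays, with Vim, Fn1 and Col1a2 bright and Lum, Cd248 and Pdgfra near the bottom of the scale on these arrays. The 40 measured markers of other cell types summed to 4184 to 5071, with Myod1, a muscle regulator, the brightest at 1366 to 2011. In these bulk RNA samples, fewer cells that express a gene and less RNA per cell cannot be told apart.

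Both cyclin E genes, known E2F1 targets, separated the 2 viruses in serum. Cyclin E1 (Ccne1), which activates Cdk2 at S phase entry, had signals of 2086 and 1550.4 on the E2F1 serum arrays and 280.1 and 332 on the control virus serum arrays. Cyclin E2 (Ccne2) read 1372 and 1443 against 2.58 and 95. The 2 virus labels were thus apart on both genes on every serum array.

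By the naming rule, the genes that led the comparison had the smallest p among probe sets whose arrays did not overlap. With a signal of at least 100 on both arrays of the higher group, 12 genes stood higher with LY294002 and 12 lower, with adjusted p of 0.307 to 0.413 and 0.245 to 0.375. Non-overlap alone is common here: 19% of all probe sets were higher on both LY294002 arrays than on both serum arrays and 24.6% were lower.

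Among those that were higher, Otud4, a deubiquitinase, read 1299 and 916 in serum and 2380.3 and 3422 with LY294002, a difference of 1.37 ± 0.28. Skic2, an RNA helicase of the superkiller complex, read 369 and 392 and then 977 and 1124, a difference of 1.42 ± 0.31. Both genes were higher on both LY294002 arrays, with little spread between arrays of a group for Skic2. H2ac25, a histone H2A gene, read 518 and 331 against 1040.3 and 1540.3, a difference of 1.57 ± 0.30, and it was also higher in control virus cells with LY294002 (542 and 735 against 263 and 381). Pot1, which binds and protects telomere ends, read 254 and 159 against 452 and 476, and Pcm1, a protein of centriolar satellites, 757 and 784 against 1252 and 1383. Gxylt1, a xylosyltransferase that acts on Notch, read 286 and 232 against 413 and 569. For these 3 the difference was 1.14 ± 0.23, 0.76 ± 0.17 and 0.87 ± 0.20, and in control virus cells it was 0.11 ± 0.23, 0.08 ± 0.17 and 0.09 ± 0.20. The other 6 were Afg2a, C2h1orf52, Acad10, Zswim6, Tmem234 and Spint2, with differences from 0.71 ± 0.16 for Tmem234 to 1.78 ± 0.33 for Afg2a.

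Among those that were lower, Sprr1a, a small proline-rich protein of the epithelial cell envelope that injured cells also make, had the largest difference, with signals of 1392 and 714 in serum and 221 and 63.4 with LY294002, -2.89 ± 0.55. Ddb2, a p53 target that recognises ultraviolet damage in DNA, read 139.6 and 155 and then 41.3 and 13.4, a difference of -1.99 ± 0.37. Neither gene's arrays overlapped, and in both the second LY294002 array was the lowest. A second probe set for Ddb2 differed by 0.04. Pfkfb3, which makes the activator of the glycolytic enzyme phosphofructokinase, read 216 and 146 against 72.6 and 54.6, a difference of -1.29 ± 0.27 (0.2 on its second probe set), while the control virus arrays read 129.6 and 83.1 against 118 and 94.1. Cul4a, the scaffold of a ubiquitin ligase that works with Ddb2, read 299 and 282 against 154 and 104 in E2F1 cells and went the other way in control virus cells, 347 and 304 against 507 and 670.0. The difference between the viruses for Cul4a was -1.91 ± 0.33, adjusted p = 0.423 (limma). Snx12, a sorting nexin, read 1098 and 1149 against 624 and 668, -0.78 ± 0.16, with tight arrays on each side. The other 7 were Arpp21, Mcm3ap, Atp8a1, Rab15, Dhdds, Gata3 and Cyp2a1, between -2.29 ± 0.44 for Atp8a1 and -0.84 ± 0.17 for Gata3. Other probe sets lay above 0 for Arpp21 (0.14, beside a further one at -0.12) and Mcm3ap (0.06).

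Without the signal minimum, the smallest p-values belonged to dim genes. Nppb, which encodes brain natriuretic peptide, had the smallest of all, with signals of 59.6 and 69.6 in serum and 10.6 and 6.21 with LY294002, adjusted p = 0.126 (limma). Pln, phospholamban, read 82.3 and 101 against 21.5 and 12.3, and Mycn, a Myc family transcription factor, 55.9 and 55.7 against 17.8 and 17.9. On the control virus arrays Nppb was at 10.1 and 8.13 in serum and 7.28 and 7.49 with LY294002, near the low levels of the inhibited E2F1 cells. Cxcr4, the receptor of the chemokine Cxcl12, was among the dim genes that were higher, at 13 and 11.6 against 38.8 and 54.3. All of these lie under or near a signal of 100, where the offset of 16 shrinks a difference.

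**Figure D1:**
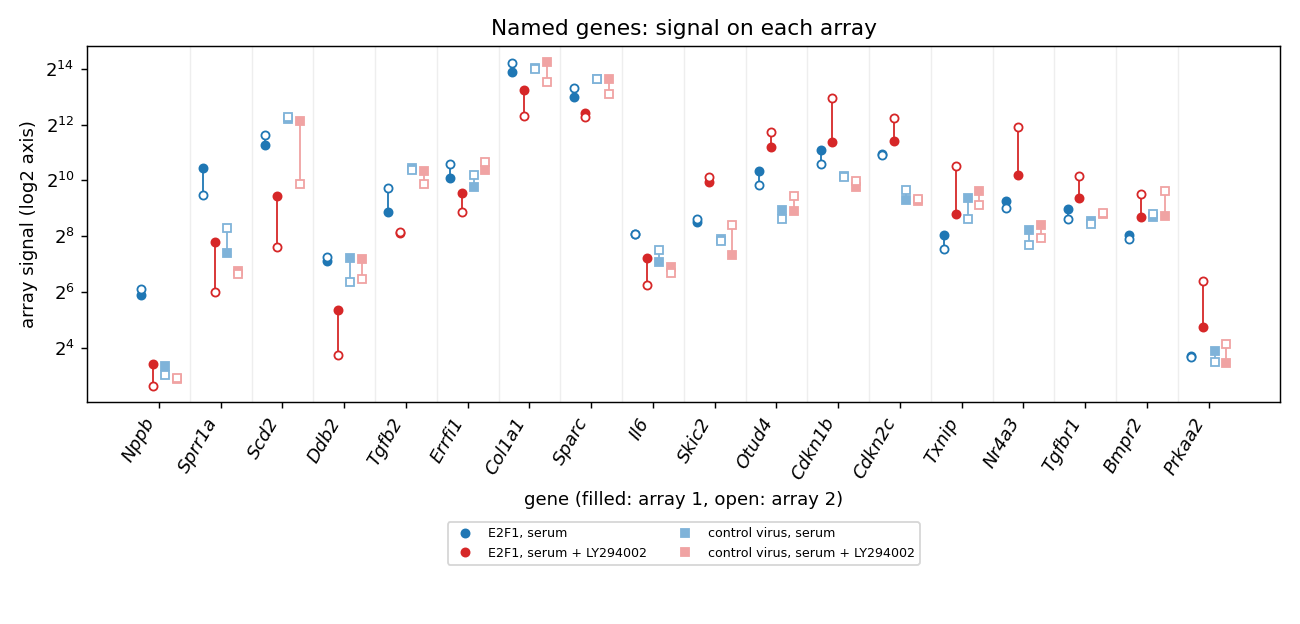
Signal on each array (log2 axis) for 18 genes named in the text, in the 4 serum groups, E2F1 or control virus with or without LY294002, with array 1 filled and array 2 open. Nppb, Sprr1a and Scd2 sit lower on both E2F1 arrays with LY294002, and for Cdkn1b, Txnip and Nr4a3 the second E2F1 array with LY294002 lies well above the first.

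The components of the pathway itself had no common direction. Of 33 measured PI3K, Akt and mTOR components, 17 lay above 0 and 16 below, with a median of 0.01 against -0.05 over all probe sets, of which 44.3% lay above 0. At an unadjusted p under 0.05 there were 2 higher and 1 lower, against 4.66% and 6.49% of all probe sets. Pdpk1, the kinase that activates Akt at the membrane, read 953 and 849 in serum and 1159.6 and 2066 with LY294002, a difference of 0.77 ± 0.30. Rictor, a subunit of the mTOR complex that completes Akt activation, read 509.5 and 359 against 570.2 and 749.8, 0.59 ± 0.22. Deptor, an inhibitor bound to mTOR, was the gene that was lower, at 333 and 298 against 234 and 146, -0.72 ± 0.27. Rictor had a like value in control virus cells, 0.64 ± 0.22, and Deptor did not, 0.07 ± 0.27.

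Among growth factor receptors and their adaptors, more read lower than higher, by a size that depended on the arrays and the scaling. Of 30 measured genes, 20 lay below 0 with a median of -0.32. The median was -0.06 without the first serum array, -0.18 without the second LY294002 array, -0.17 with quantile normalization and -0.08 with the 3' to 5' measure as a covariate. At an unadjusted p under 0.05, 1 was higher and 3 lower, against 4.66% and 6.49% of all probe sets. Lower on both LY294002 arrays than on both serum arrays were 12, against 24.6% of all probe sets. In control virus cells the median was 0.06. The insulin receptor Insr read 239 and 175 in serum and 126 and 77.1 with LY294002, a difference of -0.94 ± 0.31. The related receptor Igf1r went the other way, 923 and 1251 against 1518 and 1833, 0.63 ± 0.23, and did so in control virus cells as well, 0.89 ± 0.23. Igfbp4, which binds and holds insulin-like growth factors, had the largest difference of the list, from 964 and 1191 to 381 and 119. Its 2 LY294002 arrays lay far apart, and its standard error was wide (-2.23 ± 0.80).

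FOXO targets lay in both directions. Akt normally holds FOXO factors in the cytoplasm, and their known targets include Cdk inhibitors, pro-apoptotic genes and metabolic genes. Of 34 measured targets, 22 lay above 0 with a median of 0.30, and 14 were higher and 5 lower without overlap, against 19% and 24.6% of all probe sets. At an unadjusted p under 0.05, 6 were higher and 4 lower, against 4.66% and 6.49% of all probe sets. The median was 0.07 on the first LY294002 array and 0.36 on the second, each against the mean of the serum arrays, and 0.14 in control virus cells.

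Txnip, an inhibitor of thioredoxin and of glucose uptake, had signals of 266 and 185 in serum and 449 and 1482 with LY294002, a difference of 1.81 ± 0.52. The Cdk inhibitor p27 (Cdkn1b) read 2156 and 1552 against 2693 and 7875, 1.32 ± 0.44, and its second probe set gave 1.45. In both genes each LY294002 array was above each serum array, but the second lay far above the first. Mxi1, an antagonist of Myc, read 673 and 663 against 909.8 and 1437, 0.76 ± 0.30, and its second probe set gave -0.31. Bcl2l11, which encodes the BH3-only death protein Bim, read 407 and 409.6 against 518 and 786, a difference of 0.62 ± 0.22, and its other 2 probe sets gave -0.44 and 0.51. Its values in control virus cells were 696 and 563 in serum and 591 and 608 with LY294002, a difference of -0.06 ± 0.22, and the difference between the viruses had an adjusted p of 0.786 (limma).

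The FOXO targets that were lower included Tgfb2, a TGF-beta ligand, at 464 and 858 against 275 and 285, -1.13 ± 0.29, and Errfi1, a feedback inhibitor of the EGF receptor, at 1084 and 1534 against 747 and 471, -1.10 ± 0.29. Errfi1 was higher with LY294002 in control virus cells, 868 and 1180.5 against 1339 and 1624. The difference between the viruses for Errfi1 was -1.63 ± 0.40, adjusted p = 0.672 (limma). Pdk4, which restrains pyruvate oxidation, was also lower, 153 and 174 against 116 and 77.5, -0.69 ± 0.21.

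Other well-known FOXO targets did not pass the test either. Irs2, an adaptor of the insulin receptor, read 499.9 and 477 in serum and 427 and 901 with LY294002. Klf2, a transcription factor of quiescent cells, read 598 and 1214 against 579.6 and 1458. In both the second LY294002 array was high and the first was not, and the estimates were 0.34 ± 0.38 and 0.11 ± 0.64. Without the second LY294002 array they were -0.19 and -0.54, and the other 4 probe sets of Klf2 gave -0.44 to 0.13. Cyclin G2 (Ccng2), which accompanies cell cycle exit, read 167 and 156 against 191 and 366, 0.67 ± 0.31. The Ccng2 signals were higher on both LY294002 arrays, without overlap.

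Promoters of the list were read for the core FOXO site GTAAACA on either strand, in the window from 250 bases before to 50 after each gene's start (RefSeq, GRCr8). The site was in 5 of 29 promoters found for the list (17.2%) and in 2.29% of 8123 promoters of measured genes, and the related CAAAACA element was in 10.3% and 3.67%. Genes with the site lay in both directions with LY294002, since it was also in the promoters of Pik3ca (0.31), Insr (-0.94) and Trim63 (-0.40). The promoters of the Bim gene and of Mxi1 are shown, 2 targets that were higher on both LY294002 arrays on the probe sets given above, with the site in capitals.
Bcl2l11: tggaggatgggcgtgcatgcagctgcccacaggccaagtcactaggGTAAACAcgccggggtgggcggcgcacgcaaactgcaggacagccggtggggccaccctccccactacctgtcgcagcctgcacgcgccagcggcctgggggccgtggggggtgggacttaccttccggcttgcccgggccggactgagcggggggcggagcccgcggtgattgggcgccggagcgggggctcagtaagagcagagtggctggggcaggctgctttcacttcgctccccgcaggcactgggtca
Mxi1: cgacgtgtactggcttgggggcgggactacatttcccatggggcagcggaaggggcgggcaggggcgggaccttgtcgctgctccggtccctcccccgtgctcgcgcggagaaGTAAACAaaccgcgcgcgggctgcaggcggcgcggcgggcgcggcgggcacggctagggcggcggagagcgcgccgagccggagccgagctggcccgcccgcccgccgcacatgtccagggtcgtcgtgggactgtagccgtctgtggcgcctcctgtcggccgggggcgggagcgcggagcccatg
The first covers chr3:135819792-135820091 and the second chr1:262348392-262348691, both on the plus strand.

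D cyclins, Cdk inhibitors and G1 regulators were mixed. Of 13 D cyclins, their kinases and Cdk inhibitors, 5 lay above 0 and 8 below. Cyclin D1 (Ccnd1), the growth factor sensor of G1, had signals of 4476 and 5172 in serum and 3723 and 1569.8 with LY294002, a difference of -0.99 ± 0.36. Cdkn2c, the inhibitor p18 of the cyclin D kinases, read 1976 and 1934 against 2746 and 4786, 0.89 ± 0.31. Both were separated on all arrays, with the second LY294002 array farther out in each case. The p21 gene Cdkn1a read 8963 and 9014 against 8193 and 11035, so its groups overlapped, and its estimate of 0.08 ± 0.23 became -0.13 without the second LY294002 array, with -0.61 on its second probe set.

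Most genes of S phase entry read at or above their E2F1 serum level with the inhibitor. Of 12 measured G1/S regulators, 10 lay above 0 with a median of 0.43 (0.29 and 0.53 on the 2 LY294002 arrays), and 7 were higher without overlap, against 19% of all probe sets. In control virus cells the median was -0.44, with 9 of 12 below 0, and -0.17 without the second control virus serum array. Ccne1 read 2291 and 3236 with LY294002 in E2F1 cells, a difference of 0.59 ± 0.29 from serum, and 242 and 141 with LY294002 in control virus cells, -0.67 ± 0.29. Usp1, a deubiquitinase of DNA repair, read 1160.0 and 1078 against 1514 and 1999, 0.63 ± 0.26, and 191 and 324 against 183 and 149 in control virus cells. E2f5, a partner of the pocket proteins, read 592 and 544 against 736 and 973, 0.56 ± 0.19. The test of the difference between viruses gave 1.27 ± 0.41 for Ccne1 and 1.18 ± 0.37 for Usp1, with adjusted p of 0.741 and 0.735 (limma), and the same difference for Cdkn1b was 1.60 ± 0.62.

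DNA replication genes gave a smaller difference with the same contrast between viruses. Of 40 measured genes, 26 lay above 0 with a median of 0.13, and the median in control virus cells was -0.29. For the difference between viruses, 35 of 40 lay above 0 with a median of 0.44, and 3 were higher at an unadjusted p under 0.05, against 2.4% of all probe sets. These values rest on the second control virus serum array: 37 of the 40 genes were higher on it than on the first, and without it the control virus median was 0.05 and the difference 0.02. Rfc3, a subunit of the clamp loader, read 758 and 544 in serum and 906 and 819.7 with LY294002 in E2F1 cells, and 348 and 478 against 249 and 239.7 in control virus cells. Pola2, a subunit of DNA polymerase alpha, read 408 and 240.1 against 406 and 382 in E2F1 cells, and 59.9 and 92.4 against 16.1 and 13.1 in control virus cells. In E2F1 cells the arrays of Pola2 overlapped, and its estimate of 0.31 ± 0.28 became -0.05 without the second serum array, while in control virus cells both LY294002 arrays were below both serum arrays for each gene. The difference between viruses was 1.12 ± 0.31 for Rfc3 and 1.89 ± 0.39 for Pola2, with adjusted p of 0.735 and 0.568 (limma).

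Mitotic genes differed most between the viruses, but on unsteady control arrays. Of 35 measured genes the median with LY294002 was -0.09 in E2F1 cells (0.22 and -0.37 on the 2 arrays) and -0.96 in control virus cells, where 33 of 35 lay below 0. The E2F1 median was 0.02 when arrays were centred on their medians, so its sign depends on the scaling. The difference between viruses had a median of 0.87, with 33 of 35 above 0. The control virus serum arrays lay 0.71 below and 0.71 above their own mean for this list, and the difference was 0.07 without the second of them and 1.63 without the first. Cdk1, the kinase that starts mitosis, read 2182 and 1607 in serum and 2301 and 2064 with LY294002 in E2F1 cells, and 341 and 777 against 266 and 221 in control virus cells. Mki67, a proliferation marker, read 2486 and 2230.5 against 2532 and 3205 in E2F1 cells, and 185 and 849 against 194 and 72.7 in control virus cells. Both genes were brighter on each of these E2F1 arrays than on each of these control virus arrays, with or without the inhibitor. Their control serum arrays differed by more than 2-fold.

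Promoters of both lists were read for letters known from cell cycle genes, on either strand. The E2F sites TTTCCCGC and TTTGGCGC were in 22.9% and 20% of 35 replication promoters, against 1.74% and 0.837% of all 8123. The cell cycle homology element TTTGAA was in 19 of 29 mitotic promoters (65.5%), against 11.7% of all. Rfc3 and Cdk1 are shown, since they stood lower in control virus cells and not in E2F1 cells, with the TTTCCCGC letters (as GCGGGAAA) and the TTTGAA letters in capitals.
Rfc3: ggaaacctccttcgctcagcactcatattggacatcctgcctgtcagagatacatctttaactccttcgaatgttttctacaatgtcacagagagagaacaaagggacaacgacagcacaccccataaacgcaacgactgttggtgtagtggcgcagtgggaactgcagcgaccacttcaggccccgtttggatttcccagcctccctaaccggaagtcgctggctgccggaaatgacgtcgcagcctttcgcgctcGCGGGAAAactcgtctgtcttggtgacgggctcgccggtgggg
Cdk1: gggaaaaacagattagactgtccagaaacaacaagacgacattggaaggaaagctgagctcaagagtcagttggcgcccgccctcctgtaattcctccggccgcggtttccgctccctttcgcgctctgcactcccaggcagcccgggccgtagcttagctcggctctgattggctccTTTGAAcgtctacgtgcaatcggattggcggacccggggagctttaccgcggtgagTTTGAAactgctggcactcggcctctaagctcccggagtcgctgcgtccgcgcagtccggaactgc
The Rfc3 window is chr12:5836318-5836617 and that of Cdk1 is chr20:19265043-19265342, both on the plus strand of GRCr8.

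**Figure D2:**
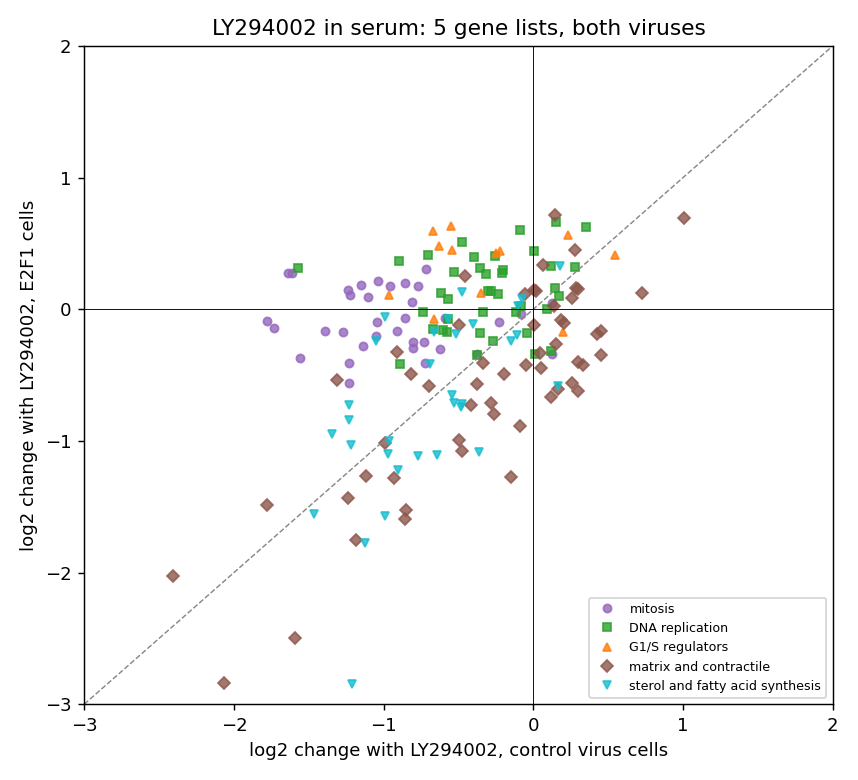
Log2 difference with LY294002 in control virus cells (x axis) and in E2F1 cells (y axis) for the genes of 5 lists, mitosis, DNA replication, G1/S, matrix, and sterol synthesis, with a dashed line where both are equal. Mitotic and replication genes lie mostly above the line, sterol genes lie low on both axes, and most matrix genes (41 of 55) lie below the line. The control virus values of mitotic and replication genes depend on the second control virus serum array. The control virus sterol medians were 0.01 and -1.23 on the 2 LY294002 arrays.

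Genes of sterol and fatty acid synthesis had the lowest median of all 25 lists. SREBP factors, which PI3K and mTOR signalling support in many cells, drive these genes. Of 32 measured genes, 28 lay below 0 with a median of -0.71, and 22 were lower on both LY294002 arrays than on both serum arrays (24.6% of all probe sets were). At an unadjusted p under 0.05, 5 were lower and 0 higher, against 6.49% and 4.66% of all probe sets. The summed signal was 37604 and 38939 in serum and 24840 and 25697 with LY294002. The list median was -0.55 on the first LY294002 array and -0.77 on the second, and -0.35 with the 3' to 5' measure as a covariate. In control virus cells it was -0.65, but 0.01 on the first LY294002 array and -1.23 on the second. There 5 of the 32 genes were lower without overlap, against 17% of all probe sets. The difference between viruses had a median of -0.06, with 15 genes above 0 and 17 below.

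Scd2, a stearoyl-CoA desaturase, had signals of 2452 and 3147 in serum and 698 and 196 with LY294002, -2.84 ± 0.73, 7.18-fold lower. Its control virus values were 4669 and 4900.0 in serum and 4463 and 944 with LY294002, where only the second inhibitor array was low. Fdps, which makes farnesyl diphosphate, read 3229.9 and 4115 against 1246 and 895, -1.77 ± 0.62. Idi1, the isomerase of the step before, read 642 and 1014 against 268 and 259.6, and Msmo1, a later sterol oxidase, 3587 and 3643 against 2381 and 1209.8. In these 3 genes every LY294002 array in E2F1 cells was below every serum array. Insig1 and Insig2 hold the SREBP complex in the endoplasmic reticulum. Insig1 read 1867 and 1716 against 798 and 941, and Insig2 read 169.6 and 144 against 90.4 and 86.7. Insig2 had the smallest unadjusted p of the list, with a difference of -0.72 ± 0.17 and an adjusted p of 0.425 (limma).

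The transcription factor genes differed less. Srebf2, the main factor of sterol genes, read 1377 and 1316 against 999.7 and 799, -0.58 ± 0.25, and Srebf1, the main factor of fatty acid genes, 522 and 496 against 496 and 285. Fasn, the fatty acid synthase, read 4039 and 3345 against 2927 and 4766, and Acaca, acetyl-CoA carboxylase, 1078 and 1009 against 925 and 1309.9. Both overlapped between groups, with estimates of 0.02 ± 0.30 and 0.08 ± 0.25, and Sqle, squalene epoxidase, gave -0.24 ± 0.71. Without the second LY294002 array Fasn gave -0.33 and Acaca -0.17.

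**Figure D3:**
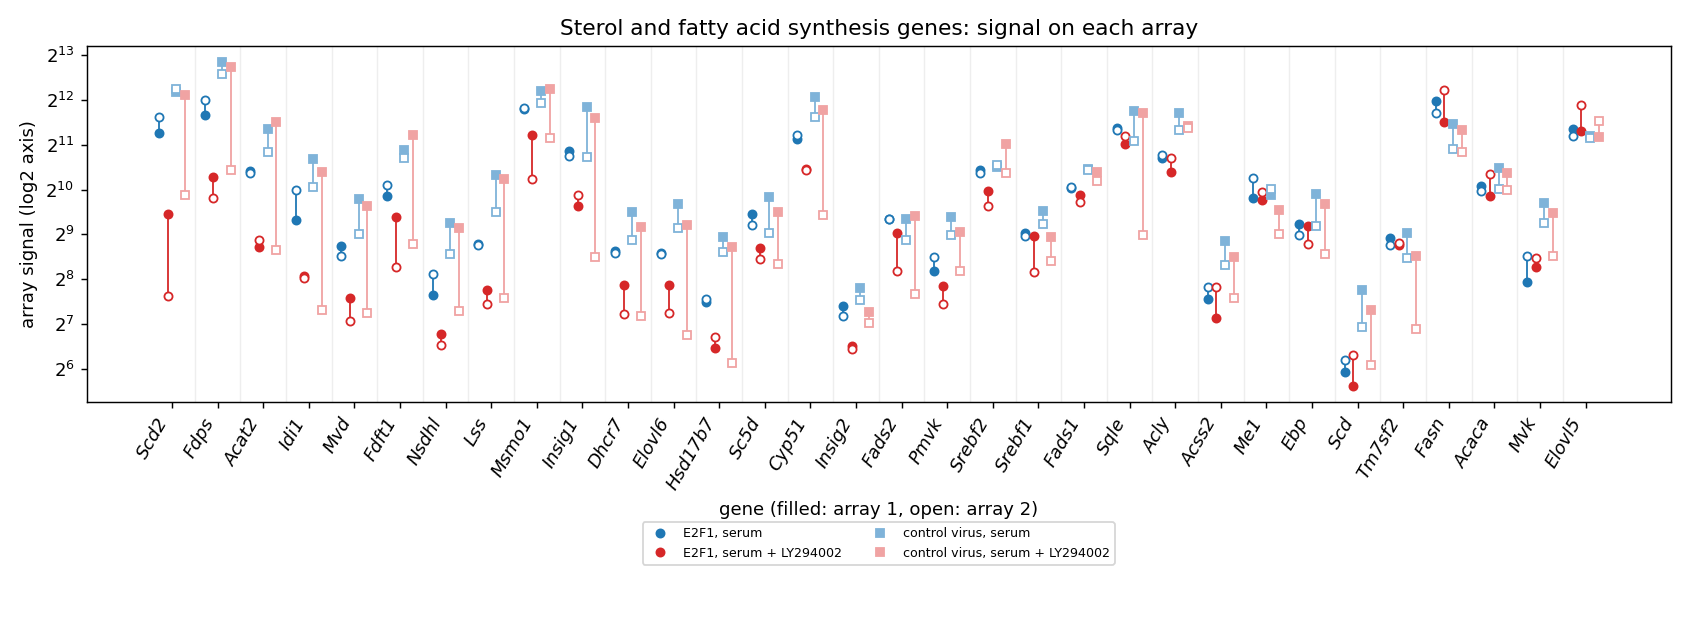
Signal on each array (log2 axis) of the 32 sterol and fatty acid genes in the 4 serum groups. The 2 E2F1 arrays with LY294002 are both low (summed signal 24840 and 25697, serum 37604 and 38939), while in control virus cells the second array with LY294002 is low and the first is not.

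The letters TCACNCCAC, one form of the sterol element, were in 0 of 25 promoters found for the list and 1.14% of all. CCAAT, the site of the NF-Y factor, was in 19 of 25 (76%) and 37.7% of all, on either strand. It was also in 79.3% of mitotic and 54.3% of replication promoters, lists with medians of -0.09 and 0.13 in E2F1 cells. In matrix promoters, whose list had a median of -0.44, it was in 36.1%. The share thus did not follow the direction of the lists. The promoters of Fdps and Scd2, the pair with the largest differences of the list, are shown with CCAAT or its complement ATTGG in capitals.
Fdps: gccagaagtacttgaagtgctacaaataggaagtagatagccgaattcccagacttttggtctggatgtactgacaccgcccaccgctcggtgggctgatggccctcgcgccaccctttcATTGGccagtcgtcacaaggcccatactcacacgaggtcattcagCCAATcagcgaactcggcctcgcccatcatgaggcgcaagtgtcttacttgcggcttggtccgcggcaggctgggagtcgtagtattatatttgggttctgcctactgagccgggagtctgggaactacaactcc
Scd2: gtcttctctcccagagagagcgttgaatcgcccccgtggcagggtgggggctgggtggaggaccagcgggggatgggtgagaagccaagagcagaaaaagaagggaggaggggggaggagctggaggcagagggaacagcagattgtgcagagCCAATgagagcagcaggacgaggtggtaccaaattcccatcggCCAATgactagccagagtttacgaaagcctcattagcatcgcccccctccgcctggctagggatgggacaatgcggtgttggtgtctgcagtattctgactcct
The Fdps window is chr2:176804767-176805066 on the minus strand and the Scd2 window chr1:253118127-253118426 on the plus strand of GRCr8, and both hold 2 such sites.

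Most matrix and contractile genes read lower in E2F1 cells with LY294002, though none passed the test. Of 55 measured genes, 42 lay below 0 with a median of -0.44 (-0.42 and -0.69 on the 2 arrays). Lower without overlap were 26, against 24.6% of all probe sets. At an unadjusted p under 0.05, 17 were lower and 1 higher, against 6.49% and 4.66% of all probe sets. In control virus cells the median was -0.05 with 29 of 55 below 0. There 19 were lower and 14 higher without overlap, against 17% and 20.5% of all probe sets. At an unadjusted p under 0.05, 7 were lower and 1 higher there, against 3.07% and 3.55%. The difference between viruses had a median of -0.31. It was -0.09 without the second E2F1 array with LY294002 and -0.08 without the first inhibitor array of control virus cells. The fibroblast markers, which share collagen genes with this list, had 9 of 15 below 0 and a median of -0.22. Col1a1, the chain of type I collagen, read 15013 and 19160.4 in serum and 9641 and 5084 with LY294002, -1.27 ± 0.35. Col3a1, of type III collagen, read 8248 and 11668 against 4947 and 593, with the second LY294002 array far below the first (-2.50 ± 1.07). Sparc, a collagen-binding matrix protein, read 8145 and 10104 against 5527 and 4953, -0.79 ± 0.22.

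Some of the matrix genes were also lower in control virus cells and some were not. Fbln2, a fibulin, gave -1.27 ± 0.36 in E2F1 cells and -1.12 ± 0.36 in control virus cells, and Fbn1, fibrillin, -1.28 ± 0.40 and -0.93 ± 0.40. Col5a1 gave -1.44 ± 0.53 and -1.24 ± 0.53, and Postn, periostin, -2.03 ± 0.99 and -2.41 ± 0.99. In those 4 genes the second array with LY294002 was the lowest of the 4 control virus arrays. The contractile genes Acta2 and Tpm1 gave -0.67 ± 0.24 and -0.56 ± 0.16 in E2F1 cells and 0.12 ± 0.24 and 0.26 ± 0.16 in control virus cells. Tpm1, tropomyosin, read 2952 and 3305 in E2F1 serum arrays, 2260.3 and 1978 with LY294002, 5079 and 5287 in control virus serum arrays and 6123 and 6284 with LY294002. Of its 5 other probe sets 1 lay above 0 in E2F1 cells, at 0.13. The difference between viruses for Tpm1 was -0.82 ± 0.22, adjusted p = 0.729 (limma).

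TGF-beta and BMP genes, which control matrix production, lay in both directions. Of 32 measured genes, 19 lay above 0 and 13 below, and 4 were higher and 5 lower at an unadjusted p under 0.05, against 4.66% and 6.49% of all probe sets. The ligands Tgfb2 and Tgfb3 were lower, Tgfb3 at 822 and 1563 against 763 and 444, -0.94 ± 0.34, and so was the co-receptor Tgfbr3, 348 and 307 against 215 and 218, -0.56 ± 0.15. The signalling receptors Tgfbr1 and Bmpr2 were higher, Tgfbr1 at 499 and 389 against 655 and 1157, 0.96 ± 0.27 (-0.37 on its second probe set), and Bmpr2 at 264 and 239.8 against 414 and 727, 1.08 ± 0.34. The 2 groups did not overlap for any of these genes on the probe sets given, and for both signalling receptors the second LY294002 array was the highest.

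**Figure D4:**
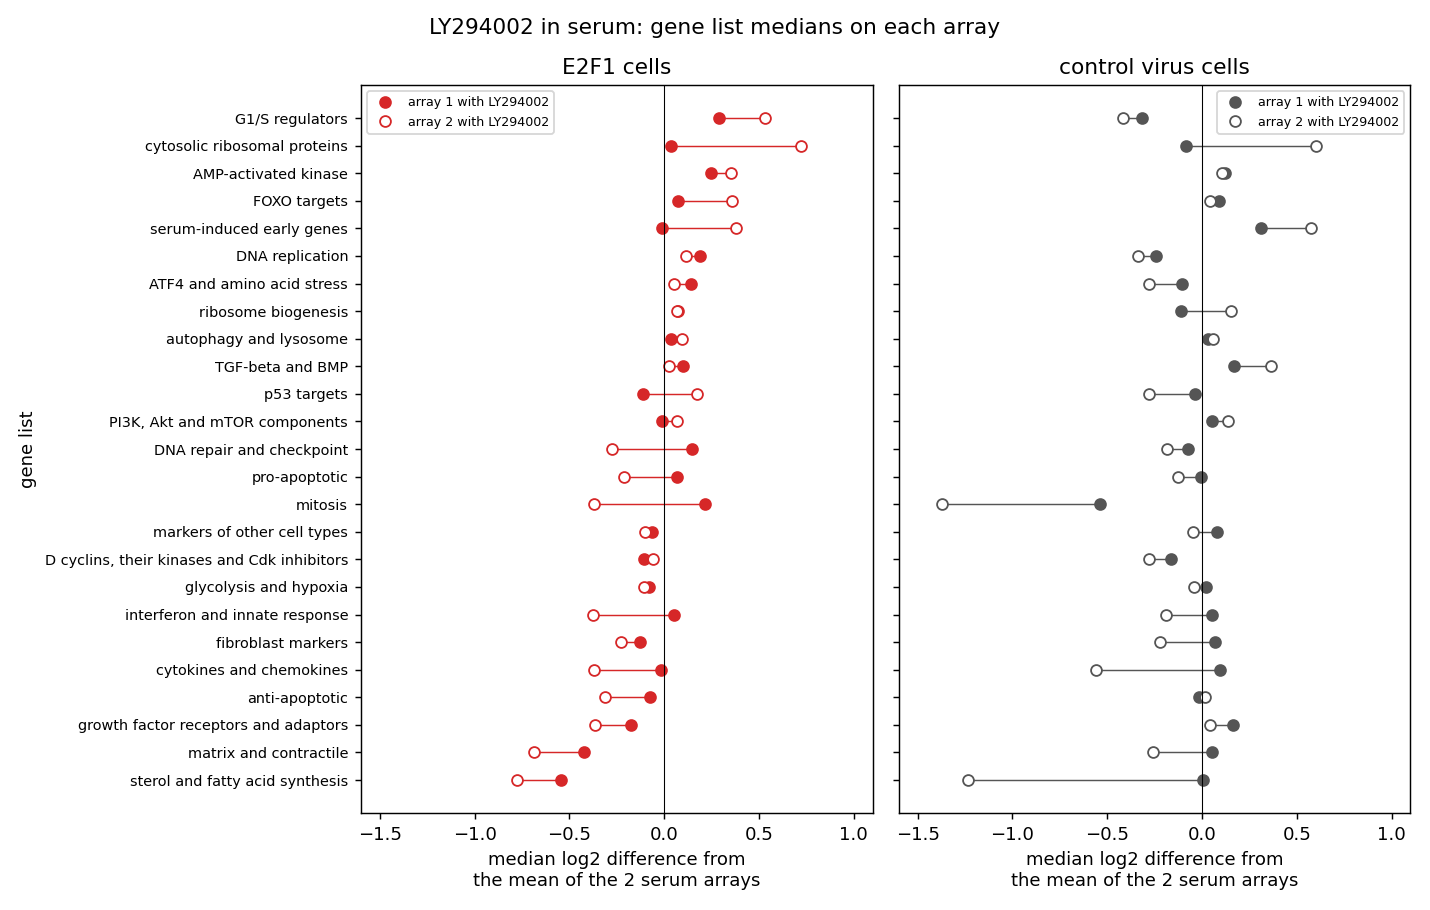
Median log2 difference of each of the 25 gene lists on each LY294002 array from the mean of the 2 serum arrays, E2F1 cells on the left and control virus cells on the right. The 2 E2F1 arrays lie on the same side for sterol, matrix and G1/S genes and on opposite sides for mitosis (0.22 and -0.37), and ribosomal protein genes are near 0 on the first array and 0.72 above on the second.

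Early serum response genes, which growth factors induce within the first hours, did not follow a single direction in E2F1 cells. Of 42 measured genes, 25 lay above 0 with a median of 0.15, and 11 were higher and 10 lower without overlap, against 19% and 24.6% of all probe sets. The median was -0.01 on the first LY294002 array and 0.38 on the second. In control virus cells the median was 0.48 and 25 were higher without overlap, against 20.5% of all probe sets (17% were lower). The orphan receptor Nr4a3 read 621 and 511 in serum and 1172 and 3891 with LY294002, 1.89 ± 0.50, and its second probe set gave 0.14. Its relatives Nr4a1 and Nr4a2 read 370.3 and 257 against 565 and 761 and 166 and 145 against 259 and 458. All 3 receptors were higher on both LY294002 arrays than on both serum arrays, with the second array the highest. Fos ranged too widely to place, 106 and 533 in serum and 119 and 393 with LY294002.

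Of 19 secreted inflammatory signals, 12 lay below 0 with a median of -0.21, -0.01 on the first LY294002 array and -0.37 on the second. Il6 read 269 and 269 in serum and 149 and 76.3 with LY294002, -1.21 ± 0.28, and the chemokine Ccl2 5265 and 3516 against 3012 and 623, -1.63 ± 0.77. In both genes the serum arrays were the higher ones and the second LY294002 array was the lowest. Of 36 interferon and innate response genes, 0 were higher and 4 lower at an unadjusted p under 0.05, against 4.66% and 6.49% of all probe sets. The list median was 0.05 on the first LY294002 array and -0.38 on the second. Among the 4 was the immunoproteasome subunit Psmb8, 141 and 112 against 50.2 and 38.3, -1.24 ± 0.31.

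Apoptosis genes gave no common direction. Of 30 pro-apoptotic genes, 10 lay above 0 and 20 below with a median of -0.12, and of 19 anti-apoptotic genes 7 lay above and 12 below with a median of -0.11. Both medians are of the size of the shift between scalings. Beside Bim, Bak1, a pore-forming death protein, read 168 and 199.9 in serum and 115 and 52.9 with LY294002, -1.07 ± 0.30. Apaf1, the apoptosome scaffold and an E2F1 target, overlapped between groups, 303 and 358 against 301 and 222, -0.33 ± 0.26. The protective protein Bcl-xL (Bcl2l1) was lower, 729 and 665 against 567 and 372, -0.58 ± 0.22, while its other 2 probe sets gave 0.14 and -1.14. Traf2, an adaptor of the tumour necrosis factor receptor, was higher, 53 and 43.2 against 86.1 and 125. Traf2 went the other way in control virus cells, 72.8 and 82.4 against 21.2 and 11.1, and the difference between viruses was 2.46 ± 0.35, adjusted p = 0.255 (limma).

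Among 17 p53 targets, 1 was higher and 3 lower at an unadjusted p under 0.05, against 4.66% and 6.49% of all probe sets. Mdm2, which degrades p53, read 5936 and 5291 against 4091 and 2003, -0.96 ± 0.31, and Phlda3, an inhibitor of Akt, 3177 and 3098 against 2467 and 1574, -0.67 ± 0.22. With Ddb2 these were the 3 that were lower, and the phosphatase Ppm1d was the 1 that was higher, 320.4 and 186 against 389.7 and 420.0.

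AMP-activated kinase genes lay mostly above 0 with both viruses. The kinase senses low energy and opposes mTOR. Of 15 measured genes, 12 lay above 0 with a median of 0.21 (0.25 and 0.35 on the 2 arrays), and 7 were higher without overlap, against 19% of all probe sets. At an unadjusted p under 0.05, 3 were higher and 0 lower, against 4.66% and 6.49% of all probe sets. With the control virus, 11 lay above 0 with a median of 0.11, and 5 were higher without overlap, against 20.5%. The catalytic subunit Prkaa1 read 470.2 and 413 in serum and 709 and 835 with LY294002, 0.78 ± 0.26, and 0.49 ± 0.26 in control virus cells, while its second probe set gave 0.01 in E2F1 cells. The other catalytic subunit, Prkaa2, read 13.2 and 12.9 against 26.7 and 85, 1.18 ± 0.38, and 14.6 and 11.2 against 10.8 and 17.7 on the control virus arrays.

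Ribosomal protein genes show how far the second arrays with LY294002 stood apart. Of 40 measured genes, 38 lay above 0 with a median of 0.37, 0.04 on the first array and 0.72 on the second, and in control virus cells the 2 arrays gave -0.08 and 0.60. The median was -0.10 with the 3' to 5' measure as a covariate. The part of this shift in the values of the other genes was not tested, beyond the values given without the second array.

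Serum deprivation of E2F1 cells is the other loss of growth signals in the series, and its comparison shares the E2F1 serum arrays with the one above, so only the values are set side by side. The 3' to 5' measure was 0.556 and 0.51 on the E2F1 deprivation arrays and 0.178 to 0.189 on the E2F1 serum arrays. It thus differed along with the treatment, and its part in the values of single genes is not given here. With this measure as a covariate, 3 probe sets were called for deprivation. The deprivation comparison below is without the covariate. It gave 37 calls (0.233% of probe sets), 24 higher (0.151%) and 13 lower (0.0819%) in limma at an adjusted p under 0.05, and 0 calls without any 1 of the 4 arrays compared. Prkaa2 rose with deprivation to 241 and 160.3, and its values with LY294002 lay between those and serum. Jag1, a Notch ligand, rose from 166 and 187 to 1115 and 1496 with deprivation and read 101 and 107 with LY294002, below serum. Myod1 fell from 1802 and 1726 to 78.4 and 159.8 with deprivation and read 2011 and 1366 with LY294002, an estimate of -0.09 ± 0.33 that became 0.19 without the second LY294002 array. Pln, on the brighter of its probe sets, rose to 901 and 878 with deprivation from 131 and 134, while it read 89.7 and 36 with LY294002. Jag1 and Pln were thus on opposite sides of serum in the 2 treatments, and the LY294002 values of Myod1 lay on both sides of its serum values.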

How the data were processed

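RNA of 11 samples was measured on Affymetrix RAE230A arrays (biotin label, 6 µg total RNA, per the labels' protocols). The deposited table holds linear signal intensities for 15923 probe sets. MAS5 and RMA appear in the submitters' processing notes with no role, so the background correction was not given in the sources used here. Every array has the same trimmed mean of 500, so no scaling was added. The 57 control probe sets were left out. The remaining 15866 were tested as log2(signal + 16) in limma 3.58.1 (R 4.3.3), with 1 mean per group over all 11 arrays, empirical Bayes variances and Benjamini-Hochberg adjustment at 0.05. Of the probe sets, 12783 had 1 gene symbol, 312 several and 2771 none in the platform annotation used here, and a gene in a list is represented by its brightest probe set. Lists are described by counts and medians, without a test.

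Named genes were those called. With 0 called, they were the 12 in each direction with the smallest p whose arrays did not overlap, read with and without a signal of at least 100 on every array of the higher group. To these come 2 per list with the smallest p, 11 of 12 genes fixed by name, and others picked after their values were seen. The members, lists and tests were chosen with earlier results of these data known, and the motifs CCAAT and TTTGAA were added after the data were seen. Each motif was searched on its own, so matches of 2 motifs can overlap. The test was tried on simulated data. Alternatives were scaling, offset, a filter on dim probe sets, variance model, array weights, a replicate block, the compared arrays alone, a 3' to 5' covariate and leaving out arrays. The main test did not pair arrays by replicate number. Deviations of same-numbered arrays correlated at 0.301 between the 2 LY294002 groups, whose arrays thus partly deviated together, and at -0.02 to 0.07 between the others. The test of the difference between viruses treats all arrays as independent.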

Additional observations from a re-analysis of the deposited data

How the results depend on the processing

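The count for LY294002 in E2F1 cells was 0 under every alternative except 1: leaving out arrays gave 0 to 325, the 325 without the first E2F1 array with LY294002. At an unadjusted p under 0.05 it ranged from 882 (3' to 5' covariate) to 3397 (without that array). Leaving out arrays gave 0 to 10 calls in control virus cells and 0 to 1 for the difference between viruses, the highest in both when control virus array 1 with LY294002 was left out. With the replicate block, which takes arrays of the same number as belonging together, LY294002 in E2F1 cells had 0 calls and 1907 at an unadjusted p under 0.05. The 37 calls of deprivation became 97 with quantile normalization, 91 with centred arrays, 16 with an offset of 1, 126 with 64, 133 without the dimmest 30%, 72 with a trended robust variance, 1173 with array weights, 6 with the replicate block, 0 from the compared groups alone, 3 with the covariate, 966 without both second LY294002 arrays, and 0 to 408 when arrays were left out (0 without any of the 4 compared, 2 without either control virus serum array, 18 without either control virus array with LY294002, 408 without either E2F1 array with LY294002). The cause was not tested. The deprivation count is thus unsteady.

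In E2F1 cells the sterol median was -0.35 with the covariate, -0.55 without both second LY294002 arrays, and -0.77 to -0.55 when arrays were left out. The matrix median ranged from -0.69 to -0.42 and the G1/S median from 0.26 to 0.53 when arrays were left out. The replication median was 0.24 with centred arrays, 0.21 with the covariate, 0.19 without both second arrays and 0.014 to 0.25 when arrays were left out. The mitosis median was 0.36 with the covariate and -0.37 to 0.22 when arrays were left out. Among the genes whose values are given for E2F1 cells, leaving out 1 of the 4 arrays turned the sign of Cdkn1a, Klf2, Irs2, Fos, Fasn, Acaca, Myod1, Pola2, Cdk1 and Trim63. Without the second LY294002 array Fasn gave -0.33, Acaca -0.17 and Myod1 0.19, and without the second serum array Fasn gave -0.11, Pola2 -0.05 and Cdk1 -0.002. Cdkn1a gave -0.11 with quantile normalization, -0.10 with the covariate and -0.13 without both second arrays, and -0.13 to 0.30 when arrays were left out. Klf2 gave -0.88 with the covariate, -0.54 without both second arrays and -0.54 to 0.76 when arrays were left out, with -0.39 without the first E2F1 serum array. Irs2 gave -0.36 with the covariate, -0.19 without both second arrays and -0.19 to 0.86 when arrays were left out. Fos gave -1.22 to 0.94 when arrays were left out, above 0 without the first LY294002 or the second serum array. The difference between viruses for Ccnb1 was -0.024 to 1.75 when arrays were left out, the lowest without the second control virus serum array.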
